A study of Mus musculus with 12 samples.

Results

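The guanylate-binding protein (Gbp) genes of M2-like bone marrow-derived macrophages (BMDM) are described here in 4 conditions. The 10 genes Gbp2, Gbp2b, Gbp3, Gbp4, Gbp5, Gbp6, Gbp7, Gbp8, Gbp9 and Gbp10 are the rows with these symbols, and the rule that picks them uses no count. They are 10 of 56748 genes in the deposited count matrix. All 10 were among the 15033 genes that passed a filter on low counts, but Gbp2b and Gbp10 had at most 3 counts in every library without IFNβ and passed through the IFNβ-exposed libraries alone. That all 10 passed therefore says nothing about them, and counts of genes that rose are read over the other 8.

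Guanylate-binding proteins are large GTPases of the dynamin superfamily and belong to the genes that interferons switch on most strongly in macrophages. They bind and hydrolyse guanine nucleotides, assemble into coats on bacteria and on the vacuoles of intracellular parasites such as Toxoplasma, and help to expose microbial products to the cytosolic sensors of the inflammasome. Several are lipid-modified at their C terminus by prenylation, which lets them sit on membranes, and type I interferon acts on many of its target genes through the interferon-stimulated response element (ISRE) in their promoters.

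The macrophages were grown from the marrow of female C57BL/6J mice in M-CSF at 20 ng/mL and polarized with IL-4 at 10 ng/mL for 48 hours. The labels give no age for the mice. Each of the 4 conditions had 3 libraries, described as biological replicates from 3 mice, and what the replicate number stands for is not stated. All cells then stayed for 72 hours in BMDM medium that differed only in its supplement. The control received none. The rIFNβ condition received recombinant IFNβ at 1500 pg/mL. The Ifnb1eGFP supernatant came from YUMM5.2 Ifnb1eGFP cells, a mouse melanoma line transduced by lentivirus with Ifnb1 and eGFP behind a tetracycline response promoter, and was diluted to the same IFNβ concentration. The eGFP supernatant came from YUMM5.2 eGFP cells, whose vector carries eGFP but not Ifnb1, and was diluted at the same ratio. Both melanoma lines had been treated with doxycycline (Dox) at 1 µg/mL for 72 hours, whereas the control and rIFNβ conditions held neither supernatant nor Dox.

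Library totals ran from 31526034 to 45348457 counts, and levels are given as CPM, counts per library total after scaling by TMM factors. At this depth 3 counts, taken as the floor in each library, amounted to between 0.0652 and 0.0954 CPM. The macrophage markers Csf1r and Adgre1 were high in every library, and the sum of 7 macrophage markers was 14122 to 18457 CPM without IFNβ and 9648 to 10581 CPM with it. The 7 did not move together. Lyz2 (8807 to 12828 CPM without IFNβ, 3441 to 4322 with it) and Itgam (1424 to 1627, 317 to 426) were lower with IFNβ. Fcgr1 (48.8 to 112, 1111 to 1294), Cd68 (1172 to 1391, 1469 to 1868) and Adgre1 (1484 to 1603, 1648 to 1836) were higher, and Csf1r and Mertk overlapped. Of the 4 IL-4-driven genes Mrc1 reached 609 to 839 CPM, whereas Arg1 stayed between 0.208 and 0.877 CPM. Retnla measured 45.4 to 71.3 CPM. Chil3 was higher with IFNβ, at 106 to 129 CPM against 63.2 to 81.5 CPM without it. The T cell markers Cd3e, Cd3d and Cd8a had at most 1 count in any library, whereas the fourth, Cd4, measured 3.72 to 5.03 CPM without IFNβ and 8.03 to 9.96 CPM with it. The 3 fibroblast markers summed to 14.5 to 31.7 CPM, but did not move together. Col1a1 was lower with IFNβ (10.6 to 22.6 CPM without it, 6.68 to 9.51 with it). Pdgfra was higher (0.877 to 3.24, 3.53 to 7.41), and Col3a1 overlapped. The summed neutrophil markers were 4.28 to 5.72 CPM without IFNβ and 0.178 to 0.960 CPM with it. Nearly all of the sum without IFNβ was S100a8, at 4.19 to 5.72 CPM without IFNβ and 0.089 to 0.531 CPM with it. The other neutrophil markers did not fall. S100a9 stayed at or below 0.152 CPM throughout, and Ly6g and Mpo were 0 without IFNβ and reached 0.0758 and 0.253 CPM with it. The summed melanoma markers stayed at or below 0.810 CPM, with Tyr, Dct and Sox10 at 3 counts or fewer. In bulk RNA, fewer cells of a type and less RNA per cell cannot be told apart, and the part that such shifts take in the Gbp levels was not tested.

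1 library stood apart for these genes. The second eGFP supernatant library lay above the 5 other libraries without IFNβ for the 8 genes above the floor. Of the genes at the floor it was the highest for Gbp10 and not for Gbp2b. For the 8 genes it was 1.41 (Gbp8) to 4.70 (Gbp5) times the mean of the other 2 eGFP supernatant libraries, with a median of 2.64. The median over all 15033 genes was 1.00, and the share of all genes highest in this library is not given here. Where leaving this library out moved a value by over 1.5 times, the value without it is given too.

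The 10 genes lie in 2 clusters (GRCm39). Chromosome 3 holds, on the plus strand, Gbp5 (chr3:142199739-142228105), Gbp7 (chr3:142236044-142255910), Gbp3 (chr3:142265731-142278979), Gbp2b (chr3:142300602-142324940) and Gbp2 (chr3:142326349-142343779). Chromosome 5 holds, on the minus strand, Gbp8 (chr5:105162016-105287452), Gbp9 (chr5:105224332-105287452), Gbp4 (chr5:105263633-105287609), Gbp10 (chr5:105362773-105412666) and Gbp6 (chr5:105418568-105443751). The annotated spans of Gbp8, Gbp9 and Gbp4 overlap on the same strand, so the division of reads among these 3 genes is uncertain.

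RefSeq promoter windows (GRCm38.p6, from 250 bases before to 50 bases after the start) matched the 5 chromosome 3 genes, and Gbp4, Gbp6, Gbp8, Gbp9 and Gbp10 are named only. The 250 bases before the start are shown because these genes were higher with IFNβ, Gbp2b from the floor, and each window holds an ISRE match. The ISRE letters were taken as GAAA and GAAA with any 2 bases between them. All windows are on the plus strand, and capitals mark the match, which reads on the minus strand and therefore appears as TTTC and TTTC.

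Gbp5 chr3:142496684-142496933: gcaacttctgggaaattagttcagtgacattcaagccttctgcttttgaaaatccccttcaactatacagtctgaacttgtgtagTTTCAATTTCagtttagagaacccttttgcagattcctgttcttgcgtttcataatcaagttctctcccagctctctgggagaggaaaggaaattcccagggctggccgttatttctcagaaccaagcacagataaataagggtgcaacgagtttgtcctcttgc
Gbp7 chr3:142530086-142530335: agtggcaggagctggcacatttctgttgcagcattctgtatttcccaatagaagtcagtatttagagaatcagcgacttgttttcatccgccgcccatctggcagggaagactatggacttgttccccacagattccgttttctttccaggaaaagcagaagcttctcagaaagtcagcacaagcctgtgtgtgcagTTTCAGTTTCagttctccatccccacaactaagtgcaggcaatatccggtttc
Gbp3 chr3:142559794-142560043: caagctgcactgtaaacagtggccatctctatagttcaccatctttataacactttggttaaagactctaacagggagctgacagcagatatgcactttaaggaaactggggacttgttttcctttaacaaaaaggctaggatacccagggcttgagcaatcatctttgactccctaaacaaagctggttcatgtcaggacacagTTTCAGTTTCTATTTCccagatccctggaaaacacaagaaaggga
Gbp2b chr3:142594597-142594846: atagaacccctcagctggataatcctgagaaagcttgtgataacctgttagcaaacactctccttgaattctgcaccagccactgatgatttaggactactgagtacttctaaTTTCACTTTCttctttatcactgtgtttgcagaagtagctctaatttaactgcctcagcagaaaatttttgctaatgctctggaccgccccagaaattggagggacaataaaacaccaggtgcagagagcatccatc
Gbp2 chr3:142620413-142620662: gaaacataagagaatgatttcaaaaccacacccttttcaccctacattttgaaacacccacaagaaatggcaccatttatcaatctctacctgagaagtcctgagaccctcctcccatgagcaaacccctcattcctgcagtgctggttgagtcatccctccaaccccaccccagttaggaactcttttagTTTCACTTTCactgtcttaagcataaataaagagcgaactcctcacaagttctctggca

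The match began 165 bases before the start in Gbp5, 137 in Gbp2b, 59 in Gbp2 and 53 in Gbp7. In Gbp3 2 overlapping matches began 45 and 39 bases before the start, and a further Gbp3 window, at an alternative start, held none. Of 32851 RefSeq windows of this length 1131 (3.44%) held the ISRE letters on either strand. The letters TTCNNNGAA, those of the gamma-activated site (GAS) found at many interferon-gamma target genes, were held by 2726 windows (8.30%). Gbp5 and Gbp7 held 2 GAS matches each, none overlapping the ISRE match, and the windows of Gbp3, Gbp2b and Gbp2 held none. A match describes letters in a window and is not a measured binding site.

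The coding sequences set a limit on how reads could be assigned. Gbp6 and Gbp10 were 95.4% identical over their coding sequences (GENCODE M39 transcripts), and 63.9% of the 50-base words of Gbp10 transcripts and 53.4% of those of Gbp6 also occurred in another of the 10 genes. The corresponding share was 13.6% for Gbp8, 5.69% for Gbp4, 4.38% for Gbp9, at most 2.68% for Gbp2, Gbp2b, Gbp3 and Gbp7, and 0 for Gbp5. The expected counts of Gbp5 were whole numbers in all 12 libraries, whereas those of Gbp6 were not whole in any. Gbp6 and Gbp10 were therefore also tested as a sum.

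The 8 genes above the floor all rose with IFNβ, whether it came in the Ifnb1eGFP supernatant or as rIFNβ. The summed level of all 10 genes was 42.6 ± 2.81 CPM (SD, n = 3) in the control and 67.1 ± 39.1 CPM in the eGFP supernatant. It was 1421 ± 90.6 CPM in rIFNβ and 1309 ± 154 CPM in the Ifnb1eGFP supernatant. The eGFP supernatant libraries summed to 46.9, 112 and 42.2 CPM, so their mean rests largely on the second. Control libraries summed to 39.6 to 45.2 CPM, a range that holds the third eGFP supernatant library and lies just below the first. By edgeR's quasi-likelihood test (Benjamini-Hochberg adjusted p of up to 0.05 over 15033 genes), 8 of the 8 genes above the floor were higher in Ifnb1eGFP than in eGFP supernatant, where 30.1% of all genes tested were higher, and 8 of 8 were higher in rIFNβ than in the control, where 30.7% were. With the stricter limits of 2 on the log2 fold change and 0.01 on the adjusted p, 8 of 8 were higher in both, against 2.77% and 2.99% of all genes. In both comparisons the lowest IFNβ-exposed library lay above the highest unexposed one for these 8 genes, which held for 32.4% and 36.4% of all genes. Gbp2b and Gbp10 met the same limits, but they could enter the test only by being higher with IFNβ.

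**Figure D1:**
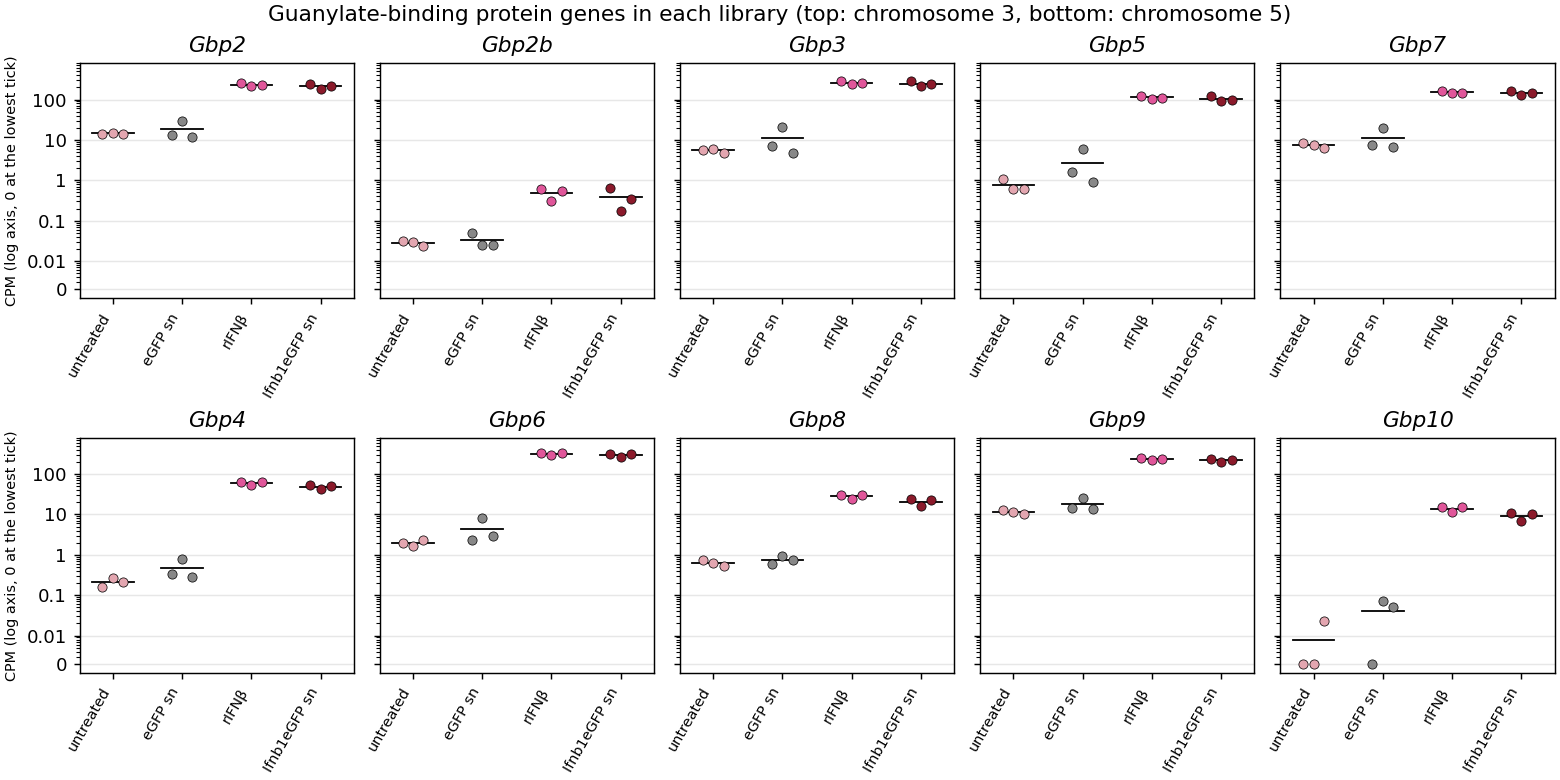
CPM of each Gbp gene in each of the 12 libraries on a log axis, with values of 0 drawn at the lowest tick, 1 panel per gene, 1 point per library and a bar at the mean of 3 libraries. In every panel the 6 libraries with IFNβ lie above the 6 without. The second eGFP supernatant library is the highest of those without IFNβ in 9 of 10 panels, including that of Gbp10, which is at the floor there.

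On chromosome 3, Gbp2, which coats parasite vacuoles and bacteria in mouse macrophages, had the highest CPM of the 10 genes in the control. It measured 14.4, 14.9 and 14.3 CPM in the control and 261, 216 and 227 CPM in rIFNβ. In the eGFP supernatant it measured 13.1, 30.2 and 11.9 CPM, against 244, 183 and 212 CPM in the Ifnb1eGFP supernatant. Every exposed library lay well above every unexposed one. The fold of the means was 16.1 for rIFNβ (log2 fold change 4.01, SE 0.30, adjusted p = 5.33e-07) and 11.6 for the Ifnb1eGFP supernatant (3.53, SE 0.29, adjusted p = 1.33e-06). In the eGFP supernatant Gbp9 lay above Gbp2 in 2 of 3 libraries.

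Gbp5, which promotes NLRP3 inflammasome assembly, started far lower and shared no 50-base word with the other genes. It measured 1.05, 0.615 and 0.591 CPM in the control and 122, 105 and 111 CPM in rIFNβ. In the eGFP supernatant the values were 1.57, 5.80 and 0.903 CPM, and in the Ifnb1eGFP supernatant 124, 91.6 and 98.8 CPM. The groups did not overlap, and the second eGFP supernatant library stood well above the other unexposed ones. Gbp5 rose 150-fold with rIFNβ (log2 fold change 7.25, SE 0.52, adjusted p = 3.32e-07) and 38.0-fold between the supernatants (5.24, SE 0.43, adjusted p = 1.19e-06). Without the second eGFP supernatant library the latter log2 fold change was 6.40.

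Gbp3 measured 5.75, 5.97 and 4.68 CPM in the control and 281, 245 and 257 CPM in rIFNβ. With supernatant it measured 6.95, 21.2 and 4.62 CPM without Ifnb1 and 284, 218 and 239 CPM with it. Again no library crossed over between the groups. Its log2 fold change was 5.58 (SE 0.46, adjusted p = 1.16e-06) for rIFNβ and 4.50 (SE 0.43, adjusted p = 4.06e-06) between the supernatants, or 5.42 without the second eGFP supernatant library.

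Gbp7 followed the same order with a higher start and a smaller change. It measured 8.36, 7.35 and 6.46 CPM in the control and 166, 148 and 149 CPM in rIFNβ, a log2 fold change of 4.39 (SE 0.34, adjusted p = 6.12e-07). In the eGFP supernatant it measured 7.60, 19.6 and 6.85 CPM, and in the Ifnb1eGFP supernatant 167, 129 and 144 CPM, a log2 fold change of 3.69 (SE 0.32, adjusted p = 1.87e-06), or 4.34 without the second eGFP supernatant library.

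Gbp2b, the gene formerly called Gbp1 in the mouse, was barely detected. Its mean was 0.0282 ± 0.00416 CPM in the control and 0.0333 ± 0.0149 CPM in the eGFP supernatant, both at the floor. It measured 0.593, 0.315 and 0.531 CPM in rIFNβ and 0.657, 0.174 and 0.347 CPM in the Ifnb1eGFP supernatant. Set against the floor of 3 counts per library, it was at least 5.66-fold higher in rIFNβ than in the control (adjusted p = 0.000277) and at least 5.26-fold higher in Ifnb1eGFP than in eGFP supernatant (adjusted p = 0.00058). Without the first Ifnb1eGFP supernatant library, its highest, the latter bound was 3.49-fold, and the gene did not enter the test when only these 2 conditions were fitted. Gbp2b was thus higher with IFNβ, but it could enter the test only by being so. It stayed the lowest of the 10 genes in both exposed conditions.

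On chromosome 5, Gbp6 gave the highest CPM of all 10 genes once IFNβ was present. It measured 2.00, 1.64 and 2.27 CPM in the control and 324, 301 and 339 CPM in rIFNβ. The eGFP supernatant gave 2.37, 8.04 and 2.99 CPM, and the Ifnb1eGFP supernatant 311, 268 and 310 CPM. The lowest exposed library lay far above the highest unexposed one. Gbp6 rose 163-fold with rIFNβ (log2 fold change 7.34, SE 0.38, adjusted p = 2.39e-08) and 66.4-fold between the supernatants (6.05, SE 0.34, adjusted p = 5.98e-08), the latter being 6.79 on the log2 scale without the second eGFP supernatant library. Summed with Gbp10, its near-identical neighbour, the log2 fold changes were 7.39 (SE 0.38, adjusted p = 2.39e-08) and 6.08 (SE 0.35, adjusted p = 6.03e-08), so the rise of the pair does not rest on how reads were divided between them.

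Gbp10 itself had no count in 2 control libraries and 1 eGFP supernatant library, and at most 3 in the other unexposed ones. With rIFNβ it measured 15.2, 11.5 and 15.2 CPM, and with the Ifnb1eGFP supernatant 10.9, 6.90 and 10.1 CPM. Against the floor it was at least 165-fold higher in rIFNβ than in the control (adjusted p = 9.95e-09) and at least 125-fold higher in Ifnb1eGFP than in eGFP supernatant (adjusted p = 2.5e-08). Reads that fit both Gbp6 and Gbp10 make the level of Gbp10 alone uncertain.

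Gbp4 was close to silent without IFNβ. It measured 0.159, 0.263 and 0.213 CPM in the control and 64.9, 55.0 and 62.3 CPM in rIFNβ. In the eGFP supernatant it measured 0.328, 0.780 and 0.276 CPM, and in the Ifnb1eGFP supernatant 53.3, 43.0 and 51.5 CPM. All exposed libraries lay far above all unexposed ones. The fold of the means was 287 for rIFNβ (log2 fold change 8.13, SE 0.25, adjusted p = 4.3e-10) and 107 between the supernatants (6.72, SE 0.22, adjusted p = 8.79e-10), the largest of the 8 genes that were above the floor in the unexposed groups. The latter log2 fold change was 7.33 without the second eGFP supernatant library.

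Gbp8 was also low, at 0.731, 0.615 and 0.544 CPM in the control and 0.581, 0.926 and 0.728 CPM in the eGFP supernatant. It reached 30.1, 24.1 and 30.2 CPM in rIFNβ and 23.9, 16.5 and 22.4 CPM in the Ifnb1eGFP supernatant. The log2 fold change was 5.49 (SE 0.21, adjusted p = 2.19e-09) for rIFNβ and 4.80 (SE 0.20, adjusted p = 4.93e-09) between the supernatants. Among the 8 genes above the floor, Gbp8 was the one for which the second eGFP supernatant library stood out least.

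Gbp9, in contrast to its overlapping neighbours, was already well above the floor without IFNβ. It measured 12.7, 11.5 and 10.5 CPM in the control and 245, 223 and 233 CPM in rIFNβ, a 20.2-fold difference (log2 fold change 4.34, SE 0.21, adjusted p = 1.56e-08). It measured 14.4, 25.6 and 13.9 CPM in the eGFP supernatant and 243, 199 and 219 CPM in the Ifnb1eGFP supernatant, a 12.3-fold difference (3.62, SE 0.20, adjusted p = 5.29e-08).

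Over the 8 genes above the floor the median log2 fold change was 4.65 (range 3.53 to 6.72) between the supernatants and 5.54 (range 4.01 to 8.13) for rIFNβ against the control, and both medians were the same over 10 genes with Gbp2b and Gbp10 set at their bounds. Over all 15033 genes the medians were 0.028 and 0.044. Ranked by log2 fold change among all genes tested, the 8 stood between ranks 34 (Gbp4) and 170 (Gbp2) between the supernatants and between ranks 26 (Gbp4) and 160 (Gbp2) for rIFNβ. Without the second eGFP supernatant library the values between the supernatants ran from 3.96 (Gbp9) to 7.33 (Gbp4) for the 8 genes. All 8 still passed, with an adjusted p of at most 3.66e-08 (edgeR). Gbp2b and Gbp10 passed too, with an adjusted p of at most 0.00383.

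**Figure D2:**
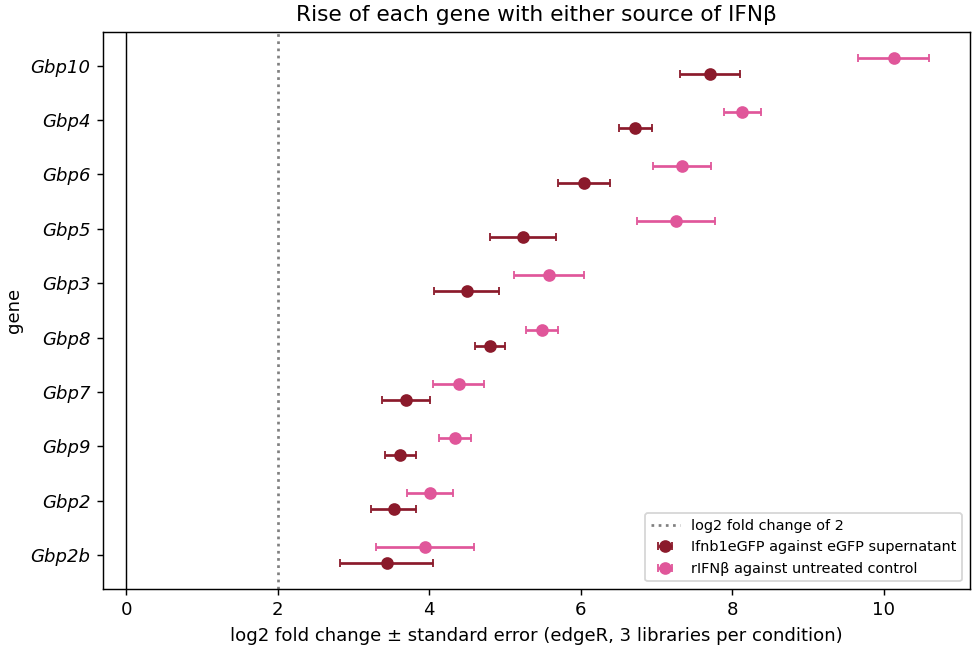
Fitted log2 fold change of each Gbp gene, with bars of 1 standard error, for Ifnb1eGFP against eGFP supernatant and for rIFNβ against the control, and a dotted line at 2. All values lie at 3.44 or above, and those of Gbp2b and Gbp10, whose unexposed libraries are at the floor, depend on the prior count of the fit.

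The make-up of the summed Gbp level differed with IFNβ. Gbp2 made up 34.2% of the summed CPM in the control and 16.5% in rIFNβ, and Gbp9 went from 27.2% to 16.5%. Gbp6 made up 4.66% in the control and 22.6% in rIFNβ, and Gbp5 went from 1.75% to 7.93%. In the Ifnb1eGFP supernatant the shares were 16.2% for Gbp2, 16.9% for Gbp9, 22.7% for Gbp6 and 7.99% for Gbp5. The chromosome 5 genes together made up 33.8 ± 0.978% (SD, n = 3) of the sum in the control, 46.3 ± 1.37% in rIFNβ and 45.7 ± 1.54% in the Ifnb1eGFP supernatant, with no overlap between the control and either exposed condition. In the eGFP supernatant they made up 37.2 ± 5.44% (31.6 to 42.4%), overlapping the control and below the lowest exposed library (43.9%), with 27.7% for Gbp2 and 28.8% for Gbp9. These shares are of CPM and are not corrected for length.

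**Figure D3:**
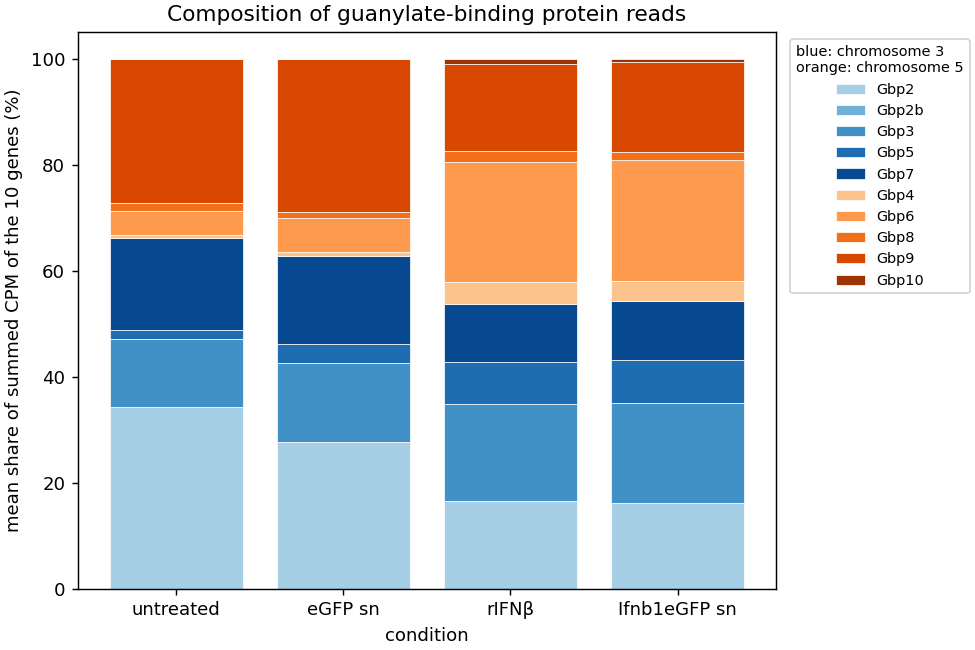
Mean share of each Gbp gene in the summed CPM of the 10 genes (percent, 3 libraries per condition), with chromosome 3 genes in blue and chromosome 5 genes in orange. Gbp2 and Gbp9 take the widest bands without IFNβ, and Gbp6 takes the widest with it (22.6% in rIFNβ).

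Levels can be compared between the genes only per length. Per kilobase of annotated exon, Gbp2 led in rIFNβ with 91.5 ± 9.14 CPM, followed by Gbp3 with 61.5 ± 4.30, Gbp6 with 47.3 ± 2.84, Gbp7 with 25.7 and Gbp9 with 24.2. Gbp5 measured 15.5, Gbp4 6.27, Gbp8 6.25, Gbp10 2.38 and Gbp2b 0.17 CPM per kilobase. Gbp7 and Gbp9 lay within each other's spread, as did Gbp4 and Gbp8. Per kilobase of coding sequence the order changed at the top, to Gbp6 with 169.99, Gbp3 with 140, Gbp2 with 133 and Gbp9 with 126 CPM, so which gene led depended on the length used. Gbp2 led in the control on both scales, with 5.67 CPM per kilobase of exon and 8.22 per kilobase of coding sequence, and Gbp2b was lowest in both exposed conditions on both.

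Whether supernatant with IFNβ and rIFNβ at the same concentration differed was asked directly. None of the 10 genes passed (adjusted p 0.494 to 0.955, edgeR), where 0.16% of all genes did in either direction. All 10 fitted values were below 0, that is lower in the Ifnb1eGFP supernatant, with a median log2 difference of -0.13 (range -0.58 for Gbp10 to -0.069 for Gbp7). The approximate 95% intervals together ran from -1.19 to 0.71. At an unadjusted p under 0.05 there were 2 genes, Gbp8 and Gbp10, against 1288 of all genes. For Gbp4 (-0.30), Gbp8 (-0.43) and Gbp10 (-0.58) every Ifnb1eGFP supernatant library lay below every rIFNβ library, which held for 4.58% of all genes. The second Ifnb1eGFP supernatant library was the lowest of its group for all 10 genes, and the share of all genes with that order is not given here. Without that library the values of Gbp2b, Gbp3 and Gbp7 turned positive, at 0.070, 0.0036 and 0.015. In that fit 194 of 15333 genes passed as higher and 857 as lower, and none of the 10 passed.

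The eGFP supernatant, which carried no added IFNβ, was compared with the control. Of the 8 genes above the floor none passed (adjusted p 0.341 to 0.949), where 0.299% of all genes did in either direction. The 8 fitted values were above 0, with a median log2 fold change of 0.82 (range 0.26 to 1.91), and 5 had an unadjusted p under 0.05, against 1203 of all genes. Gbp4, Gbp6 and Gbp9 were higher in every eGFP supernatant library than in every control library, which held for 7.96% of all genes. Without the second eGFP supernatant library the value of Gbp5 was 0.74 in place of 1.91. Those of Gbp2 and Gbp7 were -0.22 and -0.025. Gbp3, Gbp4, Gbp6, Gbp8 and Gbp9 were then at 0.087, 0.50, 0.43, 0.071 and 0.29. All 8 values thus lay below the median of 0.82 found with that library, and the smallest adjusted p was 0.638. The size of the rise over the control therefore rests largely on 1 library. Gbp2b and Gbp10 were at the floor in both groups, so no fold is given for them.

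**Figure D4:**
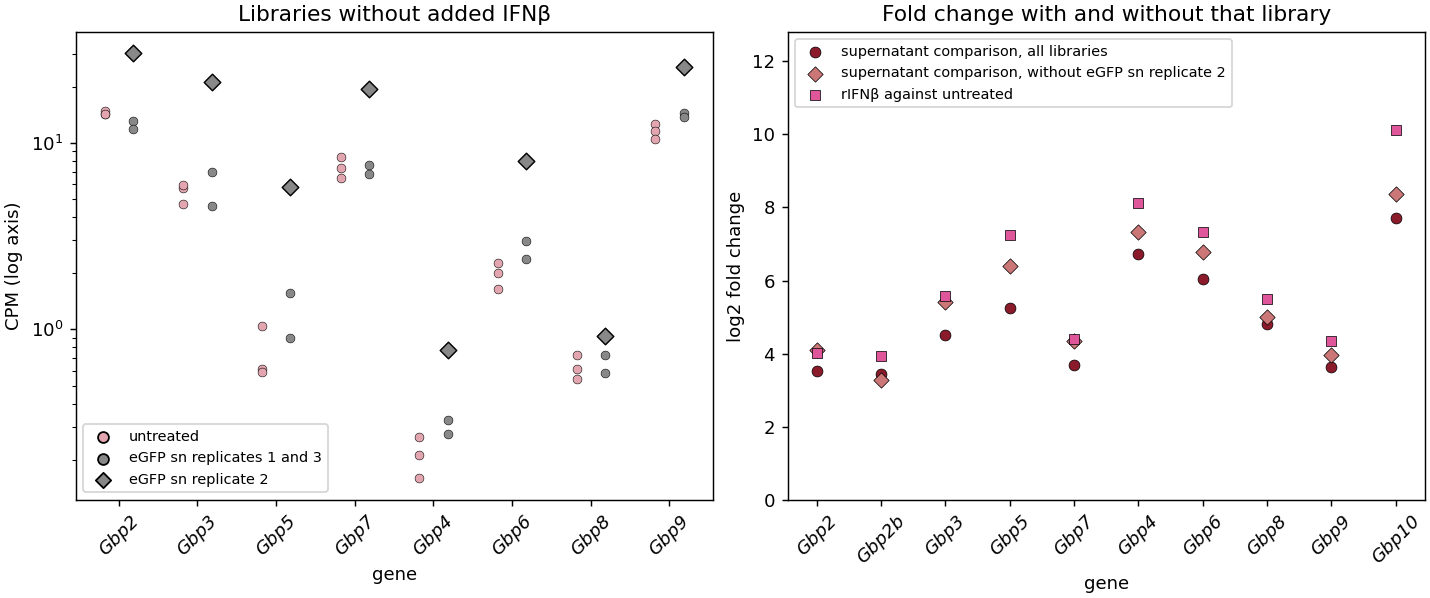
Left, CPM on a log axis of the 8 Gbp genes above the floor in the control (untreated) and eGFP supernatant (sn) libraries, with the second eGFP supernatant library as a diamond; right, fitted log2 fold change of all 10 genes between the supernatants with and without that library, and for rIFNβ against the control. The diamond on the left is the highest point for all 8 genes, and on the right leaving that library out raises the supernatant value for every gene but Gbp2b.

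The interaction, the log2 difference between the IFNβ response in supernatant and that without supernatant, was below 0 for the 8 genes, with a median of -0.90 (range -2.02 to -0.48). None passed (adjusted p = 0.926 for each), as none of the 15033 genes did, and 4 of the 8 had an unadjusted p under 0.05, against 661 of all genes. Without the second eGFP supernatant library the values ran from -0.85 to 0.080, and no adjusted p was under 0.999. The smaller folds between the supernatants than for rIFNβ are thus not shown to differ between the settings with and without supernatant.

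The genes around the Gbp family were read from lists chosen with earlier results of these data known. Counts use the limit of 0.05 on the adjusted p. Where nothing else is said they are for Ifnb1eGFP against eGFP supernatant, in which 30.1% of all genes were higher and 25% lower. With rIFNβ 30.7% were higher and 24.6% lower. Of 8 transcription factors of interferon signalling 7 were higher and 0 lower, with a median log2 fold change of 1.60. Irf7, which amplifies the type I interferon response, changed by 6.15 (adjusted p = 8.39e-06), or 7.40 without the second eGFP supernatant library, and Stat2, a component of the complex that binds the ISRE, by 3.08. Irf8, a factor that macrophages already express, was at 0.15 (adjusted p = 0.212). With rIFNβ 7 of the 8 were higher, with a median of 1.74.

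The immunity-related GTPases, which act with the Gbps on parasite vacuoles, moved in a similar range. Of 10 listed genes 8 could be tested and all 8 were higher in both comparisons, with a median of 4.51 between the supernatants and 5.61 for rIFNβ. Tgtp1 (8.13), Tgtp2 (6.74) and Iigp1 (6.66) had the largest values, and Tgtp1 and Tgtp2 are near-identical copies between which reads may be split. Tgtp1 was near the floor without IFNβ, at 0.144 ± 0.048 CPM in the control and 0.172 ± 0.147 CPM in the eGFP supernatant. It may have entered the test only through the IFNβ-exposed libraries. Leaving out the second eGFP supernatant library gave 9.09 for Tgtp1, 7.999 for Tgtp2 and 8.13 for Iigp1. Of 13 other dynamin superfamily GTPases 8 were higher and 0 lower, led by the very large interferon-inducible GTPase gene Gvin3 (6.91) and the antiviral Mx1 (4.78) and Mx2 (4.44), the last 2 being at 6.29 and 6.22 without the second eGFP supernatant library. The 5 that did not pass were Dnm1l, Dnm2, Opa1, Mfn1 and Mfn2, which act in endocytosis and mitochondrial fission and fusion and are named after their values were seen. With rIFNβ 8 were higher and 0 lower. Over the alternatives run, 6 to 8 were higher and 0 to 2 lower between the supernatants, and 5 to 8 higher and 0 to 4 lower with rIFNβ, with 2 lower in both under RLE scaling and 4 lower with rIFNβ when the compared conditions were fitted alone or without the first Ifnb1eGFP supernatant library.

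Of 10 inflammasome and pyroptosis genes 9 were higher between the supernatants and 8 with rIFNβ, with 0 lower in either. Il18, a cytokine that inflammasomes mature, changed by 2.16, Casp4, the sensor of cytosolic lipopolysaccharide, by 1.72 and Casp1 by 1.09. The median was 0.74. Over the alternatives run, 7 to 9 were higher and 0 to 1 lower between the supernatants, with 7 higher without the second eGFP supernatant library and 1 lower without the second Ifnb1eGFP one. Of 7 genes for recognition of damaged vacuoles and Gbp partners 5 were higher and 1 lower. The ubiquitin ligase Rnf213 changed by 3.29, or 4.02 without the second eGFP supernatant library, the antibody receptor Trim21 by 2.17 and the galectin Lgals8 by 1.23, and the lower gene was another galectin, Lgals3, at -0.70, named after its value was seen. With the replicate block 2 genes of this list were lower.

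The ubiquitin-like conjugation genes of autophagy, whose products guide Gbps to vacuoles, had 2 of 10 higher and 5 lower, with a median of -0.17, and 1 higher and 5 lower with rIFNβ, or 2 higher without the second Ifnb1eGFP supernatant library. Map1lc3a and Gabarapl1, members of the family conjugated to membranes, were at -0.91 and -0.87 and the activating enzyme Atg7 at -0.38, whereas Atg16l1 (0.34) and Atg3 (0.21), named after their values were seen, were higher. Of 5 prenylation enzymes 2 were higher and 2 lower. Of the transferase subunits, Pggt1b was at 0.56, Fnta at -0.49 and Fntb at -0.39. Without the second eGFP supernatant library 1 was higher and 1 lower, and with rIFNβ 3 were higher and 2 lower (1 lower without the first or the last control or rIFNβ library). No gene of any list passed in Ifnb1eGFP supernatant against rIFNβ or in eGFP supernatant against the control.

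**Figure D5:**
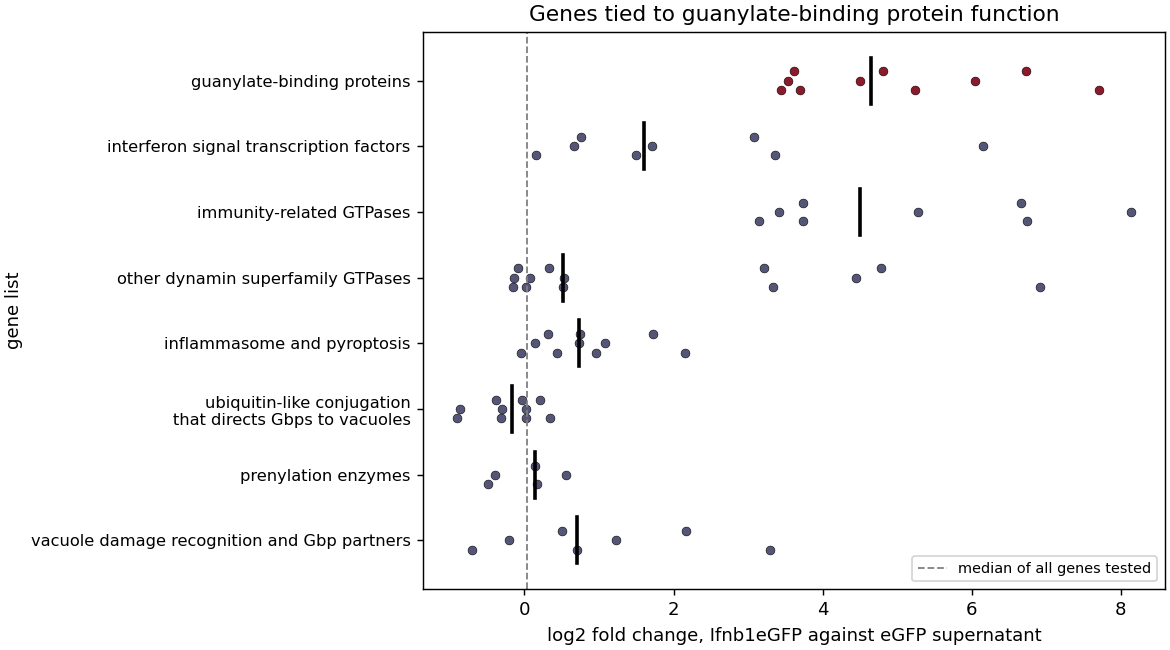
Log2 fold change of each listed gene in Ifnb1eGFP against eGFP supernatant, 1 row per list with the 10 Gbp genes as a row of their own, a bar at each median and a dashed line at the median of all genes tested. The Gbps and the immunity-related GTPases lie at the highest medians (4.65 and 4.51), and the ubiquitin-like conjugation genes have a median below 0 (-0.17).

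The neighbours of the 2 clusters were examined next. Of 9 other protein-coding genes within 200000 bases of a Gbp gene, 5 were higher and 1 lower between the supernatants, against 30.1% and 25% of all genes. The 5 include Gbp11 and Gm43302, whose means without IFNβ were at most 0.0167 and 0.00976 CPM. Both could enter the test only by being higher with IFNβ. The annotated span of Gm43302 overlaps that of a Gbp gene, and whether they share reads was not tested. Gbp11, a further Gbp-like gene on chromosome 5 that is not among the 10, had at most 66.8 counts in a library, 1.63 ± 0.166 CPM (SD, n = 3) in rIFNβ and 1.11 ± 0.201 CPM in the Ifnb1eGFP supernatant. It was at least 19.2-fold and 14.9-fold higher there than the floor in the control and the eGFP supernatant (adjusted p = 1.98e-06 and 5.6e-06). Pdlim5 (log2 fold change 0.63, adjusted p = 2.35e-06) and Pkn2 (0.57, adjusted p = 7.48e-05), which lie beside the chromosome 3 cluster, rose by far less than any Gbp gene. Abcg3 (1.00) and Gm43302, 5.29 CPM in rIFNβ and 0.739 CPM in the Ifnb1eGFP supernatant, were the other higher genes and Gtf2b (-0.15) the lower one, all 3 named after their values were seen. Kyat3, Zfp951 and Lrrc8b did not pass, and the pseudogene Gbp2-ps had 0 counts in all 12 libraries.

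The pattern over the 12 libraries was then compared with all other genes, as the root mean square difference of centred log2 CPM from the mean Gbp profile. The median over 15023 other genes was 2.65. The nearest were Phf11d (0.149), Phf11b (0.154), Enpp4 (0.158), Tnfsf10 (0.199), Ifi209 (0.287), Trim30c (0.292), Ms4a6b (0.309), Ddx60 (0.315), Zbp1 (0.334) and Phf11a (0.346). Among the 10 Gbp genes themselves the difference from their own mean ran from 0.229 for Gbp3 to 1.46 for Gbp2b, so the 4 nearest other genes lay closer to the mean profile than any Gbp gene did. The 12 libraries share their conditions, and the measure is a description of these libraries.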

How the data were processed

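RNA of M2-like BMDM was sequenced by the authors from stranded total RNA libraries, and the deposited values are expected counts per Ensembl gene, estimated with RSEM 1.3.3 and not normalized. The genome is called GRCm39 mm10 in the methods, a name made of 2 builds, and the annotation release is not given in the sources used here. Positions are those of GRCm39 (GENCODE M39), which held 56017 of the 56748 identifiers. All 12 columns matched a sample description.

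Expected counts were rounded to whole numbers. With edgeR 4.0.16 (R 4.3.3), the genes that filterByExpr kept were scaled by TMM and fitted in 1 quasi-likelihood model over all 12 libraries, with Benjamini-Hochberg adjustment over 15033 genes. The standard error was the size of the log2 fold change divided by the square root of F, and 95% intervals used its t quantile. Folds against groups at the floor used 3 counts per library. P-values measure the spread between these libraries, and floors cover counting error only. The limit on the adjusted p was 0.05, and a stricter call used limits of 0.01 and, on the log2 fold change, 2. The steps were tested on simulated data.

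The set of genes, picked by symbol alone, and the lists were chosen with earlier results of these data known. The text names all 10 genes, the 3 listed genes of largest change among those that passed, the 3 neighbours of smallest adjusted p, and the 10 genes nearest in profile. 1 gene that this rule names is not reported here. Alternatives were DESeq2 1.42.0, other scaling, no filter, counts not rounded, only the compared conditions, a replicate block and leaving out each library. Replicate numbers come from the sample titles. Deviations from the group means correlated positively in all 18 same-numbered pairs of libraries from different conditions (r 0.058 to 0.252, mean 0.148). The 36 pairs of unlike number had a mean r of -0.074 (-0.318 to 0.147). Each group was centred on its own mean, so this negative mean follows from the positive one and adds nothing to it. The main fit held no term for the replicate number. A planned protein comparison was replaced by coding-sequence identity, since no protein sequences were used here. Older symbols were matched through RefSeq synonyms.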

Additional observations from a re-analysis of the deposited data

How the results depend on the processing

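The 8 Gbp genes above the floor all passed in both IFNβ comparisons under every alternative run. In the main fit 30.1% and 30.7% of all genes were higher there. The alternatives were DESeq2, other scaling, no low-count filter, unrounded counts, only the compared conditions fitted, the replicate block and leaving out each library. None of the 10 passed in the 3 other comparisons, where 0.16%, 0.299% and 0% of all genes did in the main fit. Without the second Ifnb1eGFP supernatant library, however, 194 of 15333 genes were higher in Ifnb1eGFP supernatant than in rIFNβ and 857 lower. Gbp2b and Gbp10, which passed the filter only through the IFNβ-exposed libraries, also passed in both IFNβ comparisons, with 1 exception. Gbp2b did not enter the test when only the 2 supernatant conditions were fitted, which left 9, and the interaction could not be fitted in that way. With the number as a replicate block the 8 genes passed in both IFNβ comparisons, and the block changed no call. Of 945 values of single genes, 7 changed sign, all for differences that did not pass. Over the fits that left out 1 library each, the eGFP supernatant against the control ran from -0.22 to 0.58 for Gbp2, -0.15 to 0.40 for Gbp2b (a fitted value at the floor, not a fold) and -0.025 to 0.89 for Gbp7, and the Gbp2 interaction from -0.71 to 0.080. The Ifnb1eGFP supernatant against rIFNβ ran from -0.84 to 0.070 for Gbp2b, -0.19 to 0.0036 for Gbp3 and -0.17 to 0.015 for Gbp7. The sign changed without the second eGFP supernatant library (Gbp2, Gbp7), the first (Gbp2b) and the second Ifnb1eGFP supernatant library (Gbp2b, Gbp3 and Gbp7 against rIFNβ). The cause was not tested. The strict count in all genes ran from 383 to 454 higher and 352 to 452 lower between the supernatants.

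Depth limits Gbp2b and Gbp10 without IFNβ, which were at the floor, so their rise has a lower bound only. The levels of Gbp6 and Gbp10, and of Gbp4, Gbp8 and Gbp9, depend on how shared reads were divided. With 3 libraries a group, the standard errors of the difference between the 2 IFNβ sources were 0.14 to 0.41, so what could be detected differed by gene.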
